A study of Mus musculus with 13 samples.

Results

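The genes followed here are 9 components of transforming growth factor beta (TGF-beta) signalling, namely the ligands Tgfb1, Tgfb2 and Tgfb3, the receptors Tgfbr1 and Tgfbr2, the integrin subunits Itgav, Itgb6 and Itgb8, and the latency protein Ltbp1. They were taken by name from 23725 genes counted in the larger tables, and each was found under its Entrez identifier. Liver RNA was sequenced from 13 C57 mice aged 3 month. In the no BDL group, 5 mice were labelled as not treated. In the miR-Ctrl BDL group, 4 mice had bile duct ligation (BDL), a surgery that blocks bile flow and causes cholestatic fibrosis, and received a control oligonucleotide. In the anti-miR-873-5p BDL group, 4 mice had the same surgery and received an oligonucleotide against miR-873-5p. Each injection held 60 ug per mouse and was given on day 3 and day 5, and livers were taken on day 7. Whether the no BDL mice had a sham operation is not stated in the labels, so ligation, surgery as such and injection of an oligonucleotide cannot be told apart in a comparison with that group. No group of injected mice without BDL was analysed here.

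TGF-beta is made as a latent complex. The ligand stays bound to its own propeptide, which is tethered to the matrix by latent TGF-beta binding proteins such as Ltbp1. Integrins that contain the alpha-v subunit (Itgav) bind the propeptide of some isoforms, though not of all, and can free the ligand. The freed ligand brings the type II receptor (Tgfbr2) together with the type I receptor (Tgfbr1), which phosphorylates SMAD proteins. In cholestatic liver the pathway is known for driving stellate cells and portal fibroblasts to make collagen, and the integrin with the beta-6 subunit (Itgb6) is known as an activator on bile duct epithelium.

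The microRNA against which the oligonucleotide was directed is shown first, with the stretches of 3ʹUTR in these genes that pair with its seed, since pairing with the seed is the usual way in which a microRNA recognizes its targets. Other kinds of site, and sites outside the 3ʹUTR, were not searched. The seed, bases 2 to 8, is in capitals in the mature sequence from RefSeq (GRCm38.p6, chr4:36668556-36668576, minus strand). In the 3 sites below it, which are given 5ʹ to 3ʹ on the strand of the gene, the capitals mark the 7 bases complementary to the seed.
mmu-miR-873a-5p: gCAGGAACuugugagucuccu
Tgfbr1, chr4:47413458-47413464, plus strand: gagacttagtGTTCCTGaccccacctc
Tgfbr2, chr9:116086503-116086509, minus strand: tctgtggtctGTTCCTGagcccctgtg
Tgfb3, chr12:86056949-86056955, minus strand: ctccccaggtGTTCCTGgaagcaggtg
The sites of Tgfbr1 and Tgfbr2 are followed by an A, and that of Tgfb3 is not. A weaker match, TTCCTGA, was found in Itgav, Itgb6 and again in Tgfbr2. No match of either kind was found in the longest 3ʹUTR of Tgfb1, Tgfb2, Itgb8 or Ltbp1. GTTCCTG was present in 3 of the 9 members and in 14.87% of the 20787 genes with an annotated 3ʹUTR, and either match in 5 of 9 and in 26.37%. These shares were not adjusted for the length of the 3ʹUTR, and a longer one has more room for a match. The longest 3ʹUTR had 135 bases in Tgfb1, 1214 in Ltbp1, 2656 in Tgfb2 and 5095 in Itgb8, which held no match. It had 1035 bases in Tgfb3, 2193 in Itgb6, 3581 in Itgav, 4154 in Tgfbr1 and 6085 in Tgfbr2. The Tgfbr2 sites lie in a GENCODE transcript beyond the end of the RefSeq gene. A match of letters is a description and does not show binding.

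The libraries held 12185333 to 19689037 counts. The 20 most abundant genes took 32.4% to 48.2% of the counts without BDL and 23.6% to 28.7% after BDL. Values are normalized counts, made with the cpm function of edgeR after scaling all 13 libraries by the trimmed mean of M-values (TMM), and they are given in the order of the mouse numbers in the labels. Fold changes are edgeR quasi-likelihood estimates in the deposited table of each pair of groups, given as log2 with the standard error (SE), and adjusted p is the Benjamini-Hochberg value over all genes tested in that table. A gene rose or fell if its adjusted p was under 0.05. The table of both BDL groups holds 3 mice per group. The name of that table says that outliers were left out, and the mice absent from it are mouse 3 of miR-Ctrl BDL and mouse 2 of anti-miR-873-5p BDL. They stood apart in the summed markers of some liver cell types. The summed level of 6 endothelial markers was 30.9 in miR-Ctrl mouse 3 and 46.6 in anti-miR-873-5p mouse 2, under the 76.9 to 147.6 of the other 11 mice, and the summed level of 5 stellate cell and portal fibroblast markers was 22.9 and 26.7, under 37.1 to 112.7. Not every single marker followed these sums. Lyve1 and Pdgfrb are named after their values were seen. In anti-miR-873-5p mouse 2, Lyve1 was at 15.8, the highest of all mice, and Pdgfrb at 11.9, above every no BDL mouse. Mouse 3 of miR-Ctrl BDL and mouse 2 of anti-miR-873-5p BDL are part of the comparisons with no BDL, and the counts of members are given with and without them. The libraries are of whole liver, in which fewer cells of a type and less RNA per cell cannot be told apart. The hepatocyte markers Alb, Apoa1, Ttr, Cyp2e1 and Hnf4a were detected in every group, with a summed level of 95310 to 114028 without BDL, 42248 to 72958 in miR-Ctrl BDL and 37538 to 80239 with anti-miR-873-5p.

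Of the 9 genes, 8 passed edgeR's filter on low counts in miR-Ctrl BDL against no BDL, and 7 of the 8 rose. None fell, and the remaining gene, Tgfbr1, did not pass. Over all 13072 genes tested in that comparison 19.1% rose (2491, with 2175 that fell), and scaling by library size alone gave 9360 higher and 275 lower. All 7 also rose when any of the 9 mice was left out, miR-Ctrl mouse 3 included. Between anti-miR-873-5p BDL and no BDL, 7 of the 9 genes passed the filter and 5 rose, against 13.1% of 13130 genes tested (1715, with 1108 that fell, and 10063 higher and 131 lower by library size alone), while Tgfb1 and Tgfbr1 did not pass. Without anti-miR-873-5p mouse 2, 8 were tested and 7 rose. In 6 of the 8 genes tested in miR-Ctrl BDL, every BDL mouse was above every no BDL mouse, as in 14.8% of all genes tested, and in anti-miR-873-5p BDL this held for 5 of 7, against 10.1% of all genes tested. Itgb6, with 0 to 4 counts per mouse without BDL and 11 to 22 in miR-Ctrl BDL, passed the filter only through the BDL mice. Its place among the risen and not overlapping genes, also without anti-miR-873-5p mouse 2, is therefore not independent of its rise. Tgfb2 and Tgfb3 were low without BDL too, at 4 to 16 and 5 to 20 counts. All genes tested went through the same filter. Both comparisons use the same 5 no BDL mice. The median log2 fold change of the members tested was 1.29 and 1.01, and that of all genes tested was -0.011 and -0.0070.

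**Figure D1:**
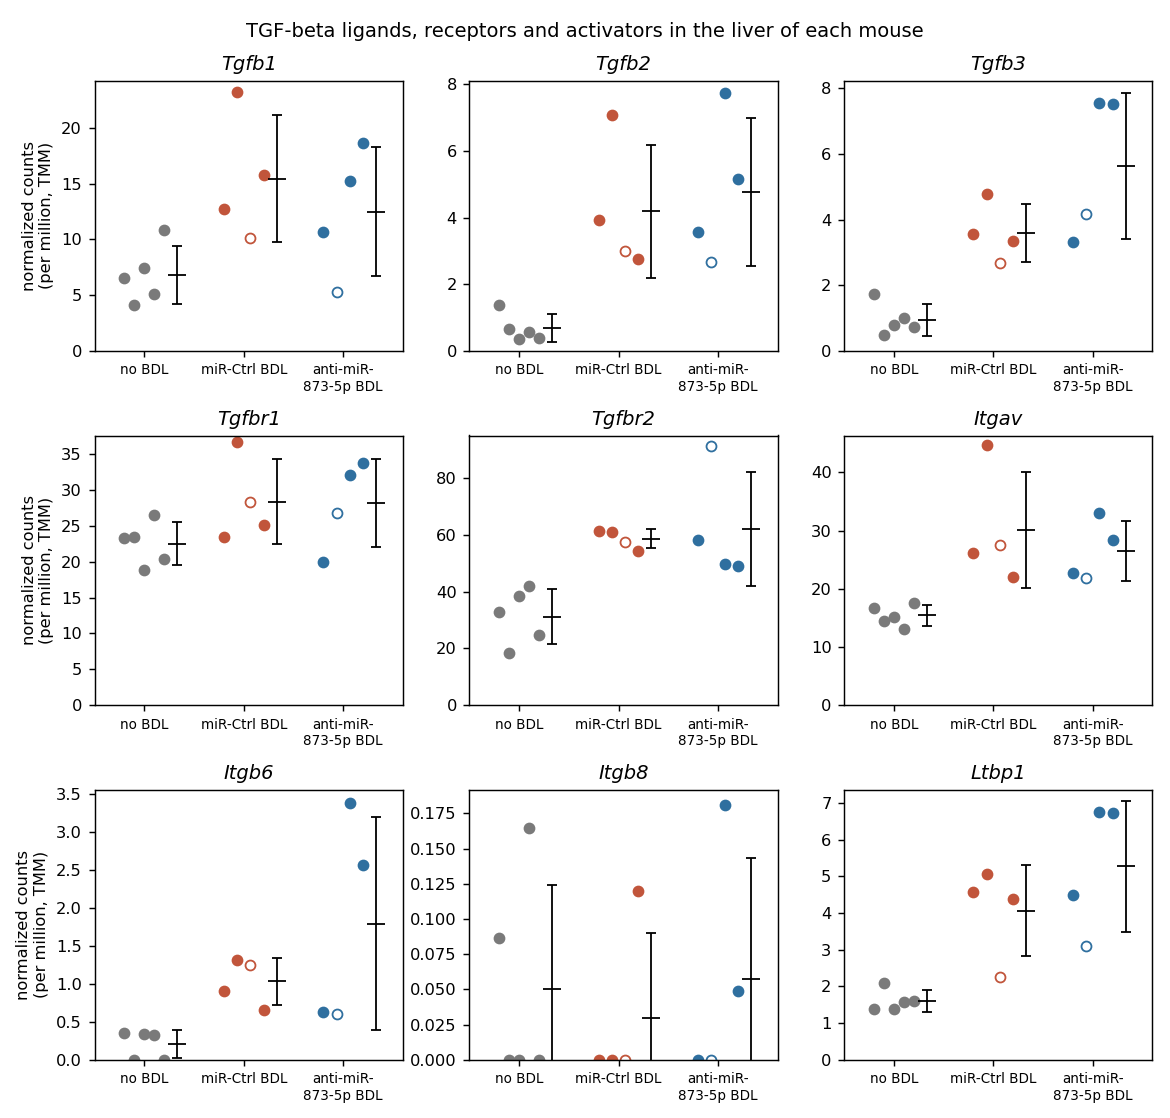
Normalized counts (TMM-scaled over 13 mice) of the 9 genes in each mouse, 1 panel per gene, with a linear axis from 0; points are mice, open points are the mice absent from the table of both BDL groups, and the black mark and bar are the mean and SD of the group. Tgfb2, Tgfb3, Tgfbr2, Itgav, Itgb6 and Ltbp1 have no overlap between no BDL and either BDL group, whereas Tgfb1 and Tgfbr1 overlap, and Itgb8 is at or near 0 in all 13 mice.

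All 3 ligands rose in miR-Ctrl BDL, and Tgfb2 and Tgfb3 also rose in anti-miR-873-5p BDL. In both comparisons Tgfb2 had the largest fold change of the members tested. Tgfb1 (chr7:25687002-25705077), the main isoform of injured liver, had normalized counts of 6.57, 4.10, 7.47, 5.10 and 10.8 without BDL and 12.7, 23.2, 10.1 and 15.8 in miR-Ctrl BDL. The means were 6.81 ± 2.59 (SD, n = 5) and 15.5 ± 5.69 (SD, n = 4), and the groups overlapped only in that miR-Ctrl mouse 3 lay under no BDL mouse 5. Tgfb1 was 2.31-fold higher (log2 fold change 1.21, SE 0.31, edgeR adjusted p = 0.0133). With anti-miR-873-5p its values were 10.7, 5.31, 15.2 and 18.7, with mice 1 and 2 inside the range of the no BDL mice. The difference from no BDL was 0.91 on the log2 scale (SE 0.37, edgeR adjusted p = 0.107), and it passed without anti-miR-873-5p mouse 2 (1.15, edgeR adjusted p = 0.0176).

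Tgfb2 (chr1:186622787-186709697) encodes an isoform best known from development and epithelia. Its values were 1.38, 0.667, 0.344, 0.575 and 0.398 without BDL, 3.92, 7.09, 3.00 and 2.76 in miR-Ctrl BDL, and 3.56, 2.66, 7.73 and 5.16 in anti-miR-873-5p BDL. Every BDL mouse was above every no BDL mouse. Tgfb2 was 6.33-fold higher in miR-Ctrl BDL (log2 fold change 2.66, SE 0.44, edgeR adjusted p = 0.00160) and 7.23-fold higher in anti-miR-873-5p BDL (2.85, SE 0.44, edgeR adjusted p = 0.00326). The no BDL livers held 4 to 16 counts of it each, so the lower level rests on few reads.

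Tgfb3 (chr12:86056743-86079041), the third isoform, had values of 1.73, 0.477, 0.773, 0.986 and 0.716 without BDL, 3.55, 4.77, 2.67 and 3.36 in miR-Ctrl BDL, and 3.31, 4.17, 7.55 and 7.52 in anti-miR-873-5p BDL. No BDL mouse reached the lowest ligated mouse, and anti-miR-873-5p mice 3 and 4 were above all others. Tgfb3 was 3.88-fold higher in miR-Ctrl BDL (log2 fold change 1.96, SE 0.34, edgeR adjusted p = 0.00202) and 6.11-fold higher in anti-miR-873-5p BDL (2.61, SE 0.38, edgeR adjusted p = 0.00270). Of its 50-base transcript windows 8.79% also occur in another gene, the highest share among the members, so part of its reads may be shared.

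Promoters are shown for the ligands with the highest and the lowest level per kb of transcript, Tgfb1 and Tgfb2, and that of Tgfb3 is not shown here. Each run covers 250 bases before and 50 after a start listed in RefSeq (GRCm38.p6), 5ʹ to 3ʹ on the strand of the gene. For Tgfb1 this is the outer start of the gene. The Tgfb2 run lies inside the span of its gene (chr1:186622787-186709697), so it shows an internal start. Capitals mark the motifs, searched on both strands, which were the GC box with the letters GGGCGG, the TATA box with the letters TATAAA, the CAGA box with the letters CAGACA, the AP-1 site with the letters TGACTCA and the SMAD site with the letters GTCTAGAC.
Tgfb1, chr7:25686752-25687051, plus strand: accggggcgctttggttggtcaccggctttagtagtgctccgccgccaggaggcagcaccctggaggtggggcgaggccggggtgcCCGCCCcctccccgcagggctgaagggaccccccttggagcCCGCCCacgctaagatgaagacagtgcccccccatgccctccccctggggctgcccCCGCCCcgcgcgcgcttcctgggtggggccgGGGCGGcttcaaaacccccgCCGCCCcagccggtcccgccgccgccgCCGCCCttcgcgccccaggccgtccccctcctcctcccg
Tgfb2, chr1:186705940-186706239, minus strand: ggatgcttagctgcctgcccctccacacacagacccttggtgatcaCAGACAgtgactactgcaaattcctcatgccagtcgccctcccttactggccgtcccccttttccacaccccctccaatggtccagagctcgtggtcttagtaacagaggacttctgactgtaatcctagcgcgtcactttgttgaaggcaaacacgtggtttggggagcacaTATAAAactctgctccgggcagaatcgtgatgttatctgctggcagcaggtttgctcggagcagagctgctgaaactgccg
The Tgfb1 promoter was 77.0% G or C and held 6 GC boxes and none of the other motifs. The Tgfb2 promoter at this internal start was 54.3% G or C and held 1 TATA box, 1 CAGA box and no GC box. Among 32851 mouse promoters of this length, 35.66% held a GC box, 13.62% a TATA box, 21.04% a CAGA box, 5.2% an AP-1 site and 0.21% the SMAD site. No promoter listed for a member held the AP-1 or the SMAD letters.

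The receptors differed from each other. Tgfbr2 (chr9:116087695-116175363), the type II receptor that binds the ligand, had values of 32.7, 18.3, 38.5, 41.8 and 24.6 without BDL, 61.5, 61.1, 57.5 and 54.4 in miR-Ctrl BDL, and 58.2, 91.4, 49.8 and 49.0 in anti-miR-873-5p BDL. All ligated mice were above all others, and the highest value was that of anti-miR-873-5p mouse 2. Tgfbr2 was 1.91-fold higher in miR-Ctrl BDL (log2 fold change 0.94, SE 0.21, edgeR adjusted p = 0.00733) and 2.02-fold higher in anti-miR-873-5p BDL (1.01, SE 0.26, edgeR adjusted p = 0.0225).

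Tgfbr1 (chr4:47353222-47414926), the type I receptor kinase, was close to its no BDL level in several ligated mice. Its values were 23.3, 23.4, 18.8, 26.5 and 20.4 without BDL, 23.4, 36.7, 28.2 and 25.1 in miR-Ctrl BDL, and 20.01, 26.8, 32.0 and 33.7 in anti-miR-873-5p BDL. The groups overlapped. The log2 fold change was 0.36 in miR-Ctrl BDL (95% interval 0.018 to 0.70, edgeR adjusted p = 0.0940) and 0.35 in anti-miR-873-5p BDL (-0.019 to 0.72, edgeR adjusted p = 0.158), so a rise of up to 1.62-fold and 1.64-fold lies within these intervals. Scaled by library size alone, which moved the median over all genes tested to 0.79 and 0.82, Tgfbr1 was at 1.18 and 1.20 and passed in both comparisons.

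Among the activators, the alpha-v subunit Itgav (chr2:83722303-83806917) was the most abundant. Its values were 16.7, 14.5, 15.2, 13.2 and 17.7 without BDL, 26.1, 44.8, 27.6 and 22.1 in miR-Ctrl BDL, and 22.8, 21.9, 33.1 and 28.3 in anti-miR-873-5p BDL. No ligated mouse fell into the range of the no BDL mice. Itgav was 1.99-fold higher in miR-Ctrl BDL (log2 fold change 0.99, SE 0.20, edgeR adjusted p = 0.00420) and 1.75-fold higher in anti-miR-873-5p BDL (0.81, SE 0.15, edgeR adjusted p = 0.00636).

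Itgb6 (chr2:60598292-60722603) encodes the beta-6 subunit, which pairs with alpha-v in epithelia. Without BDL it had 0 to 4 counts per mouse and normalized counts of 0.346, 0, 0.344, 0.329 and 0. In miR-Ctrl BDL it had 11 to 22 counts and values of 0.904, 1.31, 1.25 and 0.660, a 4.91-fold difference (log2 fold change 2.30, SE 0.62, edgeR adjusted p = 0.0166). With anti-miR-873-5p it had 8 to 56 counts and values of 0.6252, 0.607, 3.38 and 2.56, so mice 3 and 4 were above every other mouse and mice 1 and 2 were under every miR-Ctrl mouse. In this comparison with no BDL the gene did not pass the filter on low counts. A two-sided exact permutation test of log2(normalized count + 1) gave p = 0.00794, the smallest that 4 against 5 mice can give, and 0.0317 after adjustment over the 4 such tests. When genes with at least 1 count were kept, edgeR gave a log2 fold change of 3.11 (adjusted p = 0.0224), and where Itgb6 stayed in the test without anti-miR-873-5p mouse 3 or mouse 4, the adjusted p was 0.0746 and 0.0657.

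Itgb8 (chr12:119162803-119238276), whose beta-8 subunit also pairs with alpha-v, was near the limit of detection. It had 0 to 2 counts per mouse without BDL, 0 to 2 in miR-Ctrl BDL and 0 to 3 in anti-miR-873-5p BDL, and no fold change is given. A difference between groups was not detectable at this depth (two-sided exact permutation p = 0.841 and 0.921 for miR-Ctrl BDL and then anti-miR-873-5p BDL, each with no BDL, and 0.700 between the BDL groups, where 3 against 3 mice cannot go below 0.1).

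Ltbp1 (chr17:75005480-75392512), which anchors latent TGF-beta in the matrix, rose in both BDL groups. Its values were 1.38, 2.10, 1.37, 1.56 and 1.59 without BDL, 4.58, 5.07, 2.25 and 4.38 in miR-Ctrl BDL, and 4.50, 3.11, 6.76 and 6.74 in anti-miR-873-5p BDL. The lowest ligated values were those of mouse 3 of miR-Ctrl BDL and mouse 2 of anti-miR-873-5p BDL, and both were above the no BDL mice. Ltbp1 was 2.599-fold higher in miR-Ctrl BDL (log2 fold change 1.38, SE 0.27, edgeR adjusted p = 0.00352) and 3.37-fold higher in anti-miR-873-5p BDL (1.75, SE 0.27, edgeR adjusted p = 0.00336). TruSeq v2 libraries carry no strand, so reads of a member and of a gene that overlaps it cannot be told apart by strand. All members but Tgfb1 and Tgfb3 have an overlapping gene, and how such reads were counted is not given in the sources used here.

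Levels were compared between genes as normalized counts per kb of transcript. Without BDL the order was Tgfbr2 (3.81 ± 1.19, SD, n = 5), Tgfbr1 (3.50 ± 0.468), Tgfb1 (3.13 ± 1.19), Itgav (2.19 ± 0.252), Tgfb3 (0.277 ± 0.141), Ltbp1 (0.232 ± 0.0427), Tgfb2 (0.129 ± 0.0803), Itgb6 (0.0336 ± 0.0307) and Itgb8 (0.00597 ± 0.00881). The first 4 overlapped their neighbours in this order, Itgav did not overlap Tgfb3, and Tgfb2 did not overlap Itgb6. In miR-Ctrl BDL the order was Tgfbr2 (7.16 ± 0.410, SD, n = 4), Tgfb1 (7.11 ± 2.62), Tgfbr1 (4.42 ± 0.920), Itgav (4.27 ± 1.42), Tgfb3 (1.06 ± 0.259), Tgfb2 (0.806 ± 0.384), Ltbp1 (0.590 ± 0.181), Itgb6 (0.170 ± 0.0504) and Itgb8 (0.00357 ± 0.00714), and in anti-miR-873-5p BDL it was the same. Tgfb1 was above Tgfbr1 and Tgfb2 above Ltbp1 by their means in both BDL groups, in the reverse of the no BDL order, but each of these pairs overlapped in all 3 groups.

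The direct effect of anti-miR-873-5p after BDL was addressed by comparing both BDL groups, with 3 mice each. None of the 8 members tested passed (edgeR adjusted p of 0.781 to 0.998), 0 had an unadjusted p under 0.05, and DESeq2 called 0. In this comparison edgeR called 0% of all 13746 genes, with 863 at an unadjusted p under 0.05, and DESeq2 called 30. No member had groups that did not overlap, against 11.4% of all genes tested. The largest estimate was that of Itgb6, at 2.27-fold higher in anti-miR-873-5p BDL (log2 fold change 1.18, 95% interval -0.20 to 2.57), carried by mice 3 and 4. Tgfb3 differed by 0.65 on the log2 scale (-0.14 to 1.44), Ltbp1 by 0.36 (-0.12 to 0.83) and Tgfb2 by 0.25 (-0.71 to 1.21). Tgfb1 differed by -0.22 (-0.86 to 0.43), Tgfbr2 by -0.18 (-0.45 to 0.092), Itgav by -0.15 (-0.80 to 0.50) and Tgfbr1 by 0.0060 (-0.57 to 0.58). Tgfbr1, Tgfbr2 and Tgfb3, which hold the seed matches shown above, had intervals that include 0. For Tgfbr2 this table leaves out the mouse with its highest value, anti-miR-873-5p mouse 2, and with all mice of both groups the log2 difference was 0.087 (SE 0.21) in place of -0.18 (SE 0.11).

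**Figure D2:**
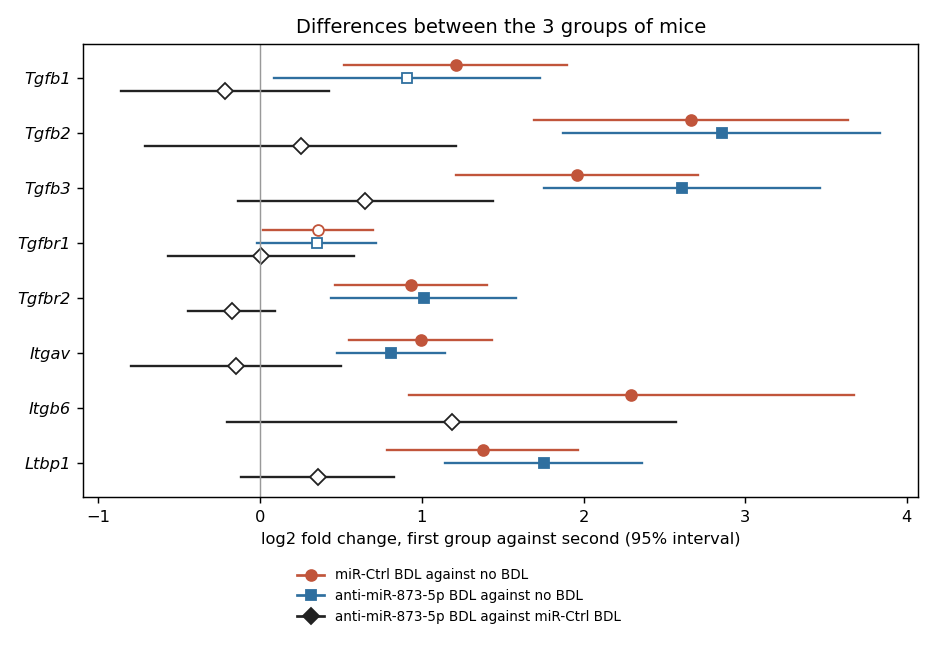
Log2 fold changes of the members tested (x axis, 0 is no difference) with their 95% intervals in 3 comparisons; filled marks have an edgeR adjusted p under 0.05. The ligated groups lie to the right of 0 against no BDL, with Tgfb2 at 2.66 and 2.85 and Tgfbr1 at 0.36 and 0.35, and all 8 intervals between the BDL groups cross 0; Itgb6 in the second comparison and Itgb8 did not pass the filter on low counts.

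Members varied within the BDL groups. miR-Ctrl mouse 2 had the highest value of its group for Tgfb1, Tgfb2, Tgfb3, Tgfbr1, Itgav, Itgb6 and Ltbp1, and also the highest macrophage (1354), endothelial (144.3) and stellate cell and portal fibroblast (100.1) marker sums of its group. In the cholangiocyte (67.8), neutrophil (41.3) and platelet (7.51) sums it was under miR-Ctrl mouse 3 (81.0, 212.8 and 9.998). Its T cell sum (1.67) was under that of miR-Ctrl mouse 4 (4.86), and its hepatocyte sum (42248) was the lowest of its group. Anti-miR-873-5p mice 3 and 4 were the highest of their group for all tested members except Tgfbr2, for which they were the lowest. Their cholangiocyte marker sums (Krt19, Krt7, Epcam, Sox9 and Cftr) were 95.7 and 70.0, against 42.1 and 38.4 in mice 1 and 2, 43.4 to 81.0 in miR-Ctrl BDL and 10.9 to 14.96 without BDL. Mice 3 and 4 also had the highest macrophage sums of their group (623.8 and 1073, against 369.0 and 418.1). Their stellate cell and portal fibroblast sums (100.8 and 112.7, against 85.5 and 26.7) and T cell sums were the highest too. Their hepatocyte sums were the lowest (51614.5 and 37538.4, against 57182.4 and 80239.4). Abundant markers weigh most in such a sum, as Alb did with 30562.4 in mouse 4. Single markers could differ from it. Marco was at 60.5 in mouse 3 against 129.5 in mouse 2, and Hnf4a at 448.8, 825.9, 463.1 and 424.2 in mice 1 to 4. In the endothelial, neutrophil and platelet marker sums mouse 4 was the highest, but mouse 3 was under mouse 1. In both BDL groups all 6 cholangiocyte markers listed were called higher than without BDL. With any 1 mouse left out, 6 were called in miR-Ctrl BDL and 4 to 6 with anti-miR-873-5p. The alternatives that kept all mice gave 5 to 6 in both groups. The macrophage sum of 6 markers was 92.9 to 490.2 without BDL, 562.9 to 1354 in miR-Ctrl BDL and 369.0 to 1073 with anti-miR-873-5p, and 5 of 6 and 2 of 6 markers were called higher. With 1 mouse left out these counts were 3 to 6 and 0 to 5. They were 3 without miR-Ctrl mouse 2, 5 in the second group without no BDL mouse 5, and 0 there without no BDL mouse 1, 2, 3 or 4 or anti-miR-873-5p mouse 3 or 4. Of 6 stellate cell and portal fibroblast markers, 1 was called higher in each BDL group, but 4 were without miR-Ctrl mouse 3 and 4 without anti-miR-873-5p mouse 2. In miR-Ctrl BDL the count was 0 without no BDL mouse 4 or miR-Ctrl mouse 1 or 2, and 2 without no BDL mouse 2. The neutrophil sum of 4 markers was 8.58 to 21.8 without BDL, 23.1 to 212.8 in miR-Ctrl BDL, where mouse 3 was the highest, and 18.8 to 77.7 with anti-miR-873-5p. The sums of 4 platelet and megakaryocyte markers (3.72 to 8.88, 4.64 to 9.998 and 4.83 to 8.31) and of 4 T cell markers (3.02 to 7.55, 0.500 to 4.86 and 0.455 to 3.59) overlapped between the 3 groups. In these lists 1 marker was called in each BDL group, and both are named after their values were seen. Cd4 was lower in miR-Ctrl BDL (log2 fold change -2.79, edgeR adjusted p = 0.00139), and Pf4 was higher with anti-miR-873-5p (1.26, edgeR adjusted p = 0.0427). No platelet marker was called in 6 of the 9 fits with 1 mouse left out. Of 6 hepatocyte markers, 4 were called lower in miR-Ctrl BDL and 2 with anti-miR-873-5p, or 4 without its mouse 2. The part of these cells in the changes of the members was not tested.

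**Figure D3:**
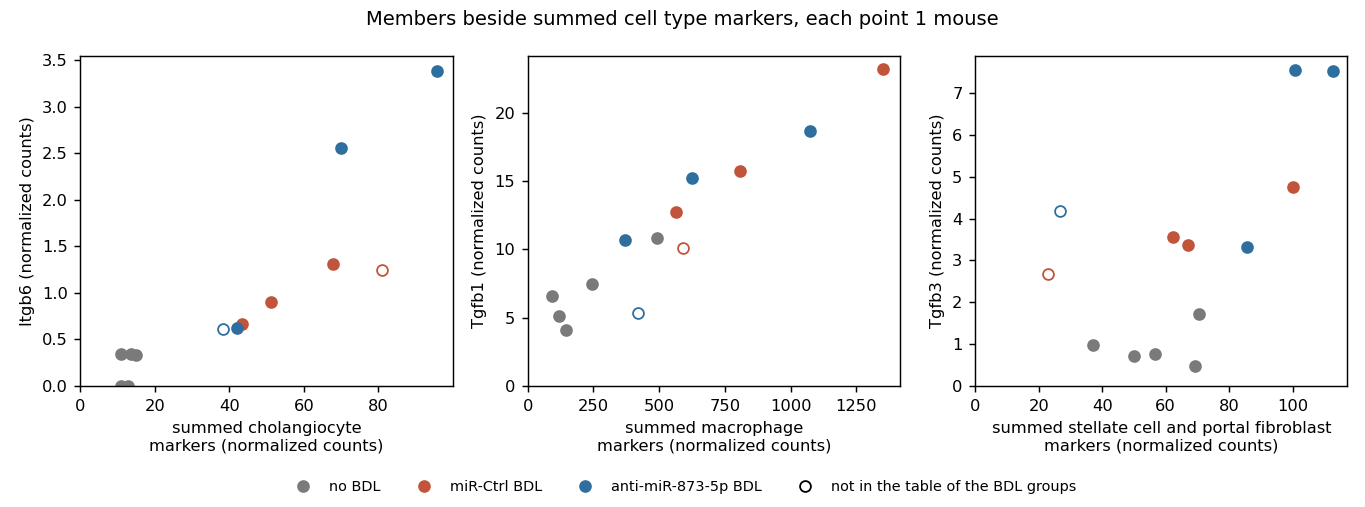
Normalized counts of Itgb6, Tgfb1 and Tgfb3 (y axes) against the summed normalized counts of cholangiocyte, macrophage and stellate cell or portal fibroblast markers (x axes), each point 1 mouse, with open points for the mice absent from the table of both BDL groups. Anti-miR-873-5p mice 3 and 4 have the highest Itgb6, at 3.38 and 2.56, with cholangiocyte sums of 95.7 and 70.0. miR-Ctrl mice 2 and 3 have cholangiocyte sums of 67.8 and 81.0 with Itgb6 of 1.31 and 1.25. The open points lie at stellate sums of 22.9 and 26.7 with Tgfb3 of 2.67 and 4.17.

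Across the 13 mice, the genes with the pattern most like that of Tgfb1 were Prkcb, Rinl, Pip4k2a, Tbc1d1 and Adgre5, among 12654 genes, each averaging 10 counts or more. The mean absolute difference of their centred log2(normalized count + 1) from that of Tgfb1 was 0.13 to 0.15, against a median of 0.63 over all those genes. The nearest member was Itgav at 0.30, and Tgfb2 and Tgfb3 were at 0.46 and 0.43.

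The rest of the pathway was described with 35 further genes in 6 lists, all of which passed the filter. Of the 35, 18 rose and 2 fell after BDL with miR-Ctrl, where 19.1% of all genes tested rose. With anti-miR-873-5p 13 rose and 0 fell, against 13.1% of all genes tested. At an unadjusted p under 0.05 the numbers were closer, with 20 up and 2 down for miR-Ctrl, then 20 up and 1 down. Over all genes tested, 5973 of 13072 and 4754 of 13130 had such a p in either direction. Leaving out 1 mouse at a time gave 13 to 17 risen genes with miR-Ctrl and 9 to 17 with anti-miR-873-5p. Without the mice that stood apart, the counts of risen genes were 17 and 17. The median log2 fold change was 0.57 and 0.73. In the list on release of latent TGF-beta, 5 of 8 rose and 1 fell in miR-Ctrl BDL, and 4 of 8 rose in anti-miR-873-5p BDL. Thbs1, the matrix protein thrombospondin that can activate latent TGF-beta, was at 1.20 ± 0.644 (SD, n = 5) without BDL, 15.1 ± 12.8 (SD, n = 4) in miR-Ctrl BDL and 9.08 ± 3.48 (SD, n = 4) in anti-miR-873-5p BDL (log2 fold changes 3.64 and 2.93, edgeR adjusted p = 0.00130 and 0.00206). Without miR-Ctrl mouse 3 the first was 2.89. Ltbp3, a relative of Ltbp1, rose by 1.11 and 1.69 on the log2 scale (edgeR adjusted p = 0.00261 and 0.00159). Ltbp4, another relative, was at 35.6 ± 9.22 without BDL and 15.9 ± 6.99 in miR-Ctrl BDL, where it fell by 1.13 (edgeR adjusted p = 0.0240). That call held in 7 of 9 fits with 1 mouse left out, and was lost without no BDL mouse 1 or miR-Ctrl mouse 1. With anti-miR-873-5p it was at 22.7 ± 8.82, and its log2 fold change was -0.61 (edgeR adjusted p = 0.185).

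All 3 other beta subunits that pair with alpha-v rose in miR-Ctrl BDL, and 1 of 3 in anti-miR-873-5p BDL. Itgb1, the common beta-1 subunit, had log2 fold changes of 0.39 and 0.23 (edgeR adjusted p = 0.00887 and 0.152), Itgb3 0.85 and 0.73 (edgeR adjusted p = 0.0448 and 0.162) and Itgb5 0.57 and 0.74 (edgeR adjusted p = 0.0219 and 0.0155). With 1 mouse left out, the miR-Ctrl BDL call held in 9 of 9 fits for Itgb1, 5 of 9 for Itgb5 and 2 of 9 for Itgb3. The co-receptors did not follow the type II receptor. Tgfbr3, the proteoglycan betaglycan, fell by 0.88 in miR-Ctrl BDL (edgeR adjusted p = 0.00898), from 8.32 ± 1.09 (SD, n = 5) to 4.40 ± 1.19 (SD, n = 4), and its log2 fold change in anti-miR-873-5p BDL was -0.52 (edgeR adjusted p = 0.0823). Eng, the endothelial co-receptor endoglin, had log2 fold changes of -0.41 and -0.079 (edgeR adjusted p = 0.228 and 0.800). Acvrl1, the endothelial type I receptor, had 0.92 and 0.80 (edgeR adjusted p = 0.0286 and 0.114), and its miR-Ctrl BDL call held in 4 of 9 fits with 1 mouse left out.

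None of the 3 genes for SMAD2, SMAD3 and their partner SMAD4 passed in either comparison (edgeR adjusted p of 0.0930 or more), with log2 fold changes of 0.10, 0.48 and 0.25 in miR-Ctrl BDL and -0.0024, 0.42 and 0.22 in anti-miR-873-5p BDL. In DESeq2, Smad4 passed in miR-Ctrl BDL (adjusted p = 0.0493), and its interval in edgeR was 0.013 to 0.48. Smad4 also passed there without no BDL mouse 2 (0.33, edgeR adjusted p = 0.0234). Smad3 passed without miR-Ctrl mouse 3 (0.67, edgeR adjusted p = 0.0219) and, in the other comparison, without anti-miR-873-5p mouse 2 (0.60, edgeR adjusted p = 0.0427). Of 9 inhibitors of the pathway, 3 rose in miR-Ctrl BDL and 2 in anti-miR-873-5p BDL, where the count was 4 without mouse 1 and 1 without no BDL mouse 3 or its own mouse 3 or 4. Smad7, the inhibitory SMAD, had log2 fold changes of 0.070 and 0.23 (edgeR adjusted p = 0.876 and 0.673). Skil, which encodes the SMAD repressor SnoN, had 1.06 and 0.93 (edgeR adjusted p = 0.0332 and 0.0729), with the miR-Ctrl BDL call held in 3 of 9 fits with 1 mouse left out. Pmepa1, a negative regulator induced by TGF-beta, rose by 1.72 and 1.67 (edgeR adjusted p = 0.000288 and 0.00326), from 3.12 ± 0.427 (SD, n = 5) to 10.2 ± 2.51 and 9.71 ± 3.56 (SD, n = 4 each).

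Of 9 known TGF-beta target genes, 6 rose in each BDL group, with a median log2 fold change of 1.11 in miR-Ctrl BDL and 1.91 in anti-miR-873-5p BDL. Ccn2, the matricellular growth factor CTGF, had 1.03 and 1.91 (edgeR adjusted p = 0.111 and 0.0357), with the anti-miR-873-5p BDL call held in 2 of 9 fits with 1 mouse left out. Tgfbi, a matrix protein named for its induction by TGF-beta, rose by 0.93 and 0.98 (edgeR adjusted p = 0.00932 and 0.0231), and the second call held in 4 of 9 such fits. Between the BDL groups, 0 of the 35 genes passed in edgeR and 1, Ltbp4, had an unadjusted p under 0.05 (log2 fold change 0.50, 95% interval 0.17 to 0.84, edgeR adjusted p = 0.757). DESeq2 called 0 of the 35. Among the target genes, the counts of Acta2 and Fn1 differed between the deposited tables in 1 mouse each, by at most 0.552% and 0.00537%.

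**Figure D4:**
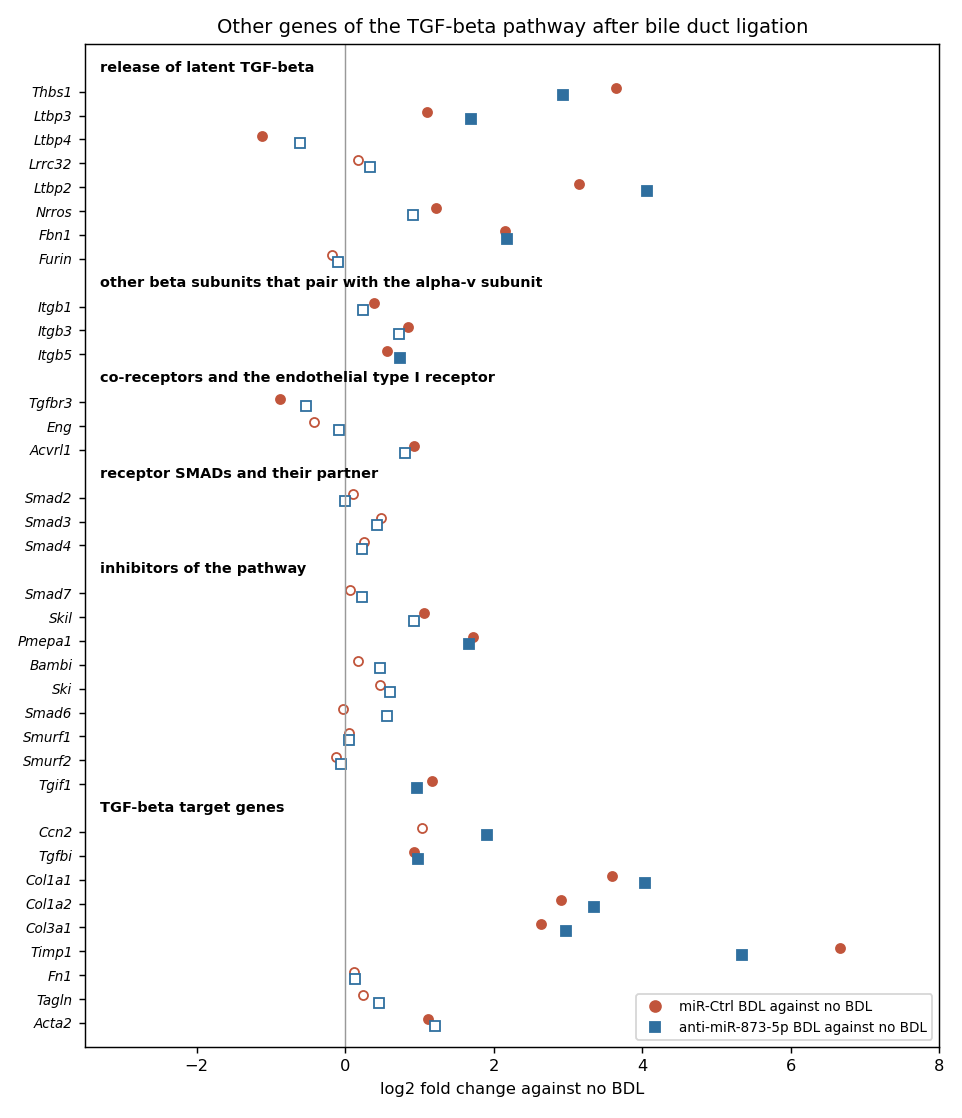
Log2 fold changes against no BDL (x axis) of 35 further genes of the pathway in 6 lists, circles for miR-Ctrl BDL and squares for anti-miR-873-5p BDL, filled where the edgeR adjusted p was under 0.05. The target genes have medians of 1.11 and 1.91, and the SMAD2, SMAD3 and SMAD4 genes lie between -0.0024 and 0.48 with no filled mark.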

How the data were processed

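Liver RNA of 13 mice was sequenced by the authors from TruSeq RNA v2 libraries as single reads of 50 nt, mapped to mm10 with TopHat, and deposited as raw counts per Entrez gene in 3 tables, 1 for each pair of groups. The counting program and its gene annotation are not given in the sources used here. Of 23725 identifiers, 23709 matched a RefSeq symbol. Groups were taken from the labels, which number separate mice. The depth was 12185333 to 19689037 counts.

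The analysis used edgeR 4.0.16 under R 4.3.3, namely filterByExpr, TMM scaling and the quasi-likelihood test, with p-values adjusted by Benjamini-Hochberg and a threshold of 0.05 over all genes tested, and 1 fit per table. Displayed levels were scaled over all 13 mice and the 22246 genes whose counts agree between tables. Members under the filter were compared by exact permutation tests of log2(normalized count + 1). Fits were tested on simulated data in which 200 genes had a log2 change of 2, of which 89.0%, 87.0% and 87.5% were recovered for miR-Ctrl BDL with no BDL (13072 genes), anti-miR-873-5p BDL with no BDL (13130) and between the BDL groups (13746), while 5.32%, 1.14% and 3.31% of the calls fell on unchanged genes. Recovery of smaller changes, such as the member estimates between the BDL groups, was not simulated. Alternatives were library-size scaling, DESeq2 size factors, DESeq2 1.42.0, other filters, all 13 mice in 1 fit, a replicate block, an adjusted p of 0.1 and leaving out each mouse. Spp1, Des and Cps1, whose counts differed between tables, and Ly6g, which matched no row, were left out of marker sums.

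The members and the gene lists were chosen with earlier results of these data known. Genes named are all 9 members, the first 3 genes of each pathway list and the 5 genes most like Tgfb1, and the other listed genes are counted. A target gene of these lists is not reported here, and the counts and medians leave it out. Coordinates and sequences are from RefSeq and GENCODE for GRCm38, the same assembly as mm10.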

Additional observations from a re-analysis of the deposited data

How the results depend on the processing

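The count of members that rose was 6 to 8 in miR-Ctrl BDL and 4 to 7 in anti-miR-873-5p BDL under the alternatives that kept all mice, and 0 in each setting between the BDL groups. With each mouse left out in turn it was 7 in miR-Ctrl BDL and 5 to 7 with anti-miR-873-5p. Of the log2 fold changes between the BDL groups, none of which passed, several changed sign. Tgfbr1 was at -0.0011 with DESeq2 size factors, -0.0017 in DESeq2, -0.011 with all 13 mice in 1 fit and -0.0087 with all mice of both groups, and Tgfbr2 was at 0.082 and 0.087 in the last 2. With 1 mouse left out, Tgfb1 ranged from -0.42 to 0.059, Tgfb2 from -0.076 to 0.71, Tgfbr1 from -0.13 to 0.23 and Itgav from -0.35 to 0.21. Against no BDL, scaling by library size alone gave Eng 0.42 in miR-Ctrl BDL, and with anti-miR-873-5p Eng 0.78, Ltbp4 0.24, Tgfbr3 0.32 and Smad2 0.81, with Smad2 at 0.0060 with DESeq2 size factors and 0.0048 in DESeq2. With 1 mouse left out, Smad7 ranged from -0.077 to 0.32 with miR-Ctrl and from -0.12 to 0.48 with anti-miR-873-5p, where Eng ranged from -0.25 to 0.065 and Smad2 from -0.072 to 0.075. Scaled by library size alone, the falls of Ltbp4 and Tgfbr3 in miR-Ctrl BDL were -0.29 and -0.074 and did not pass. Of the 35 other pathway genes 32 then rose in miR-Ctrl BDL and 33 with anti-miR-873-5p, in place of 18 and 13. The count of all genes that rose with anti-miR-873-5p, 1715, was 904 without its mouse 3, 948 without its mouse 4 and 2500 without its mouse 2. The cause of these changes was not tested.

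Whether equal mouse numbers mark paired mice is not stated in the labels. Between the BDL groups the correlation was -0.39 to 0.57 for same-numbered mice and -0.51 to 0.70 for the others. For same-numbered mice it was -0.20 to 0.082 for anti-miR-873-5p BDL with no BDL and -0.072 to 0.030 for miR-Ctrl BDL with no BDL. With 4 same-numbered pairs in each set of correlations these values cannot decide whether the mice were paired. With the replicate block, 6 members rose with miR-Ctrl, 4 with anti-miR-873-5p and 0 passed between the BDL groups. Itgb6 then had 1.97 in miR-Ctrl BDL (edgeR adjusted p = 0.0624), and Tgfbr2 had 0.94 in anti-miR-873-5p BDL (edgeR adjusted p = 0.119). Between the BDL groups Tgfb1 had 0.0041 and Itgav 0.081 under the block. In that fit only the numbers 1 and 4 occur in each group, so these estimates rest on the mice with those numbers. The block takes up every mouse whose number has no partner, among them miR-Ctrl mouse 2. Without that mouse and without the block, Tgfb1 was at 0.059 and Itgav at 0.21. Of the other pathway genes 9 rose with anti-miR-873-5p under the block, and Itgb5, Ccn2 and Tgfbi no longer passed. The depth limits Itgb8, with at most 3 counts per mouse, and Itgb6, with at most 4 without BDL.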
